A study of Mus musculus with 8 samples.

Results

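The Polycomb and heterochromatin silencing genes are 38 listed genes that keep chromatin shut, taken by symbol, though chosen with earlier results of these data known. Of the 38 genes, 36 were measured, out of 19938 genes with a probe set of their own on the array. Each was read on its brightest probe set over the 8 arrays. Suv39h1, a histone H3 lysine 9 methyltransferase, and Cbx6, a chromodomain protein of PRC1, are not analysed here, since no probe set carries their symbol alone. Polycomb repressive complex 2 (PRC2) places methyl groups on lysine 27 of histone H3, and PRC1 binds that mark, ubiquitinates histone H2A and compacts the chromatin. A separate system methylates lysine 9 of histone H3, which the HP1 proteins bind to form heterochromatin. In male germ cells both systems are known to hold somatic genes and retrotransposons silent.

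Total RNA was measured on 8 arrays in cultures of mouse spermatogonial stem cells, which renew themselves and feed sperm production. The first group (n = 3) came from donors aged 8 days after 7 to 10 weeks in culture (young donor, short culture). The second (n = 3) came from donors of the same age after 14 to 18 months of culture (young donor, long culture). The third (n = 2) came from a serial-transplant line with a labelled donor age of 1500 days, cultured for 14 to 18 months (serial transplant, long culture), so donor age and transplantation came together, and the labels do not settle whether that age is of 1 animal or of the line. The labels give no strain, genotype or treatment that differs between groups, and they do not say whether replicates were separate cultures, so the spread behind every p-value is that between these arrays and may be technical.

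Values are log2 RMA signals, in which a difference of 1 is a doubling, and precision is limited by how few arrays each group has. The median of all 28944 probe sets was 6.94, and the 36 silencing genes had means over the 8 arrays from 7.40 (Phf19) to 11.74 (Cbx3), all above it. Levels of different genes are not comparable on this scale. All 5 core germ cell markers were brighter than the overall median, averaging 10.30 to 10.99 on the arrays, and none of 5 spermatid markers was, at 5.49 to 5.84. The 8 markers of undifferentiated spermatogonia averaged 9.49 to 10.00. Of 12 fibroblast markers 11 were also brighter than that median, and they averaged 10.03 to 10.61 in young short culture, 9.43 to 9.47 in young long culture and 8.87 to 9.49 in the serial-transplant line. Young short-culture replicate 2 stood apart, correlating at 0.991 and 0.990 with the other replicates of its group, which correlated at 0.996 with each other.

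Long culture of young-donor cells was compared with short culture first, to see how the silencing genes stand after more than a year in vitro. Of the 36 genes, 3 rose, namely the PRC2 genes Ezh2 and Suz12 and the PRC1 ubiquitin ligase gene Rnf2, and 2 fell, the PRC1 genes Pcgf1 and Phc3 (limma, Benjamini-Hochberg adjusted p under 0.05 over all probe sets). That is 13.9% of the genes, beside 11.3% of all probe sets (5.43% higher and 5.83% lower) and 18.1% of the 9525 genes at least as bright as Phf19 (9.99% higher), so the share called was near the background. The differences were small and mostly of one sign. In all, 31 of the 36 had a positive difference, with a median of 0.17 and a range from -0.53 (Pcgf1) to 0.62 (Ezh2). Of the 9525 genes at least as bright as Phf19, 5622 were positive, with a median of 0.06. Of all 19938 genes 8608 were positive, with a median of -0.04, so the sign varied with brightness. The 9525 genes share only a lower limit of brightness with the silencing genes, and no set matched in brightness was drawn. In 16 of the 36 every long-culture array lay above every short-culture array, and in 4 every one lay below. Beside these stand 15.1% and 16.3% of all probe sets and 2573 and 1638 of those 9525 genes. No gene was called without young long-culture replicate 1 or replicate 3, when 4.78% and 3.75% of all probe sets were, while without young short-culture replicate 2 the median was 0.09, with 28 genes positive and 5 called. With each array centred on its median the split of 3 higher and 2 lower became 5 higher and 0 lower, with a median of 0.22 and 31 positive. Quantile normalization gave 3 higher and 1 lower, with a median of 0.12 and 28 positive. Array weights gave 4 higher and 3 lower, with a median of 0.12 and 30 positive.

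**Figure D1:**
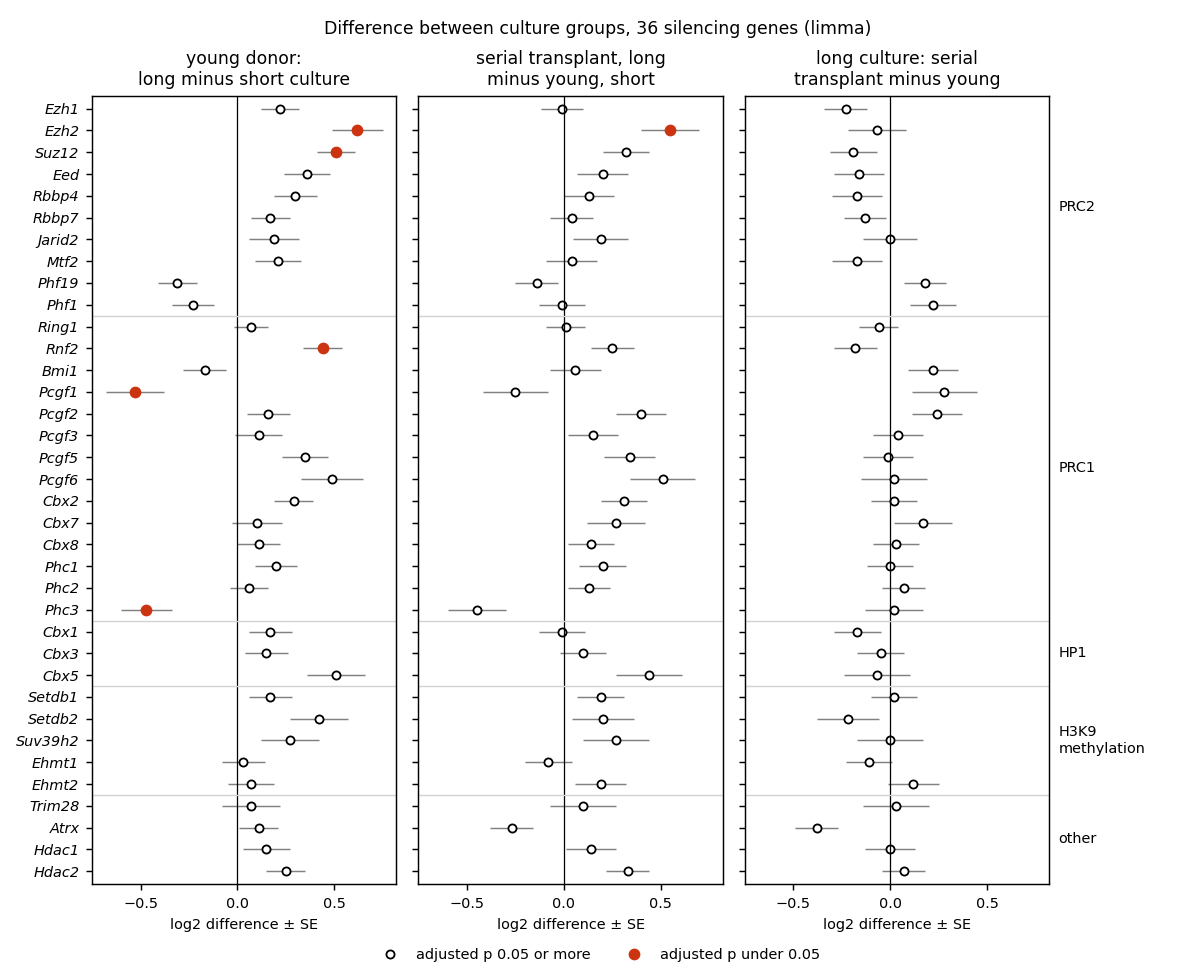
Log2 difference (x axis) with its standard error from limma for each of the 36 silencing genes (y axis, ordered by complex) in the 3 comparisons, with filled points for an adjusted p under 0.05. Most points of the first panel lie to the right of 0, where Ezh2, Suz12 and Rnf2 are filled, Pcgf1 and Phc3 are filled on the left, only Ezh2 is filled in the second panel and none in the third.

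Of the catalytic and core subunits of PRC2, Ezh2 and Suz12 rose after long culture of young-donor cells, while Eed and Ezh1 did not pass. Ezh2, the main H3K27 methyltransferase of dividing cells, read 10.03, 9.53 and 10.00 on the short-culture arrays, 10.51, 10.42 and 10.49 on the long-culture arrays of young donors and 10.32 and 10.49 on those of the serial-transplant line. Every long-culture array lay above every short-culture array. The young-donor difference was 0.62 ± 0.13 (SE), a 1.54-fold rise (limma adjusted p = 0.0150), and it was 0.46 without young short-culture replicate 2, the lowest array (adjusted p = 0.0206). Suz12, the scaffold that holds the complex together, read 10.28, 10.02 and 10.21 in short culture, 10.78, 10.60 and 10.68 in young long culture and 10.47 and 10.52 in the serial-transplant line. Its groups did not overlap, in the order short culture, serial transplant, young long culture, and it rose by 0.51 ± 0.10 in young donors (limma adjusted p = 0.0113). Without young long-culture replicate 1 or 3 neither passed, Ezh2 at adjusted p = 0.0564 and 0.0626 and Suz12 at 0.0504 and 0.0514, with differences of 0.47 to 0.61.

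Eed, the subunit that binds the finished H3K27 mark, read 9.75, 9.66 and 9.83 in short culture, 10.27, 10.03 and 10.04 in young long culture and 9.79 and 10.11 in the serial-transplant line. The young groups did not overlap, but the difference of 0.36 ± 0.12 missed the threshold (limma adjusted p = 0.0687; 0.41 and adjusted p = 0.0471 with each array centred on its median). Ezh1, the paralog of Ezh2 that prevails in resting cells, read 10.01, 9.91 and 10.11 in short culture, 10.34, 10.13 and 10.22 in young long culture and 9.95 and 10.04 in the serial-transplant line. Its highest values were thus those of the young long cultures, with a difference of 0.22 ± 0.10 from short culture that did not pass (adjusted p = 0.194). Whether Ezh2 moved more than Ezh1 was not tested.

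The histone-binding subunits and accessory factors of PRC2 were not called. Rbbp4 (0.30) and Rbbp7 (0.17), histone chaperones shared with other complexes, and Mtf2 (0.21) and Jarid2 (0.19), which help to bring PRC2 to its targets, had positive differences, with adjusted p from 0.112 to 0.397. The other Polycomb-like proteins, Phf19 (-0.31, adjusted p = 0.0726) and Phf1 (-0.23, adjusted p = 0.198), were the only PRC2 genes with negative differences. Both were lower on every young long-culture array than on any short-culture array, Phf19 at 7.19 to 7.28 against 7.42 to 7.72, while Mtf2 was the reverse. In PRC2 as a whole 2 of 10 genes rose and none fell. Of all probe sets 5.43% rose, and of the genes at least as bright as Phf19 9.99% rose.

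**Figure D2:**
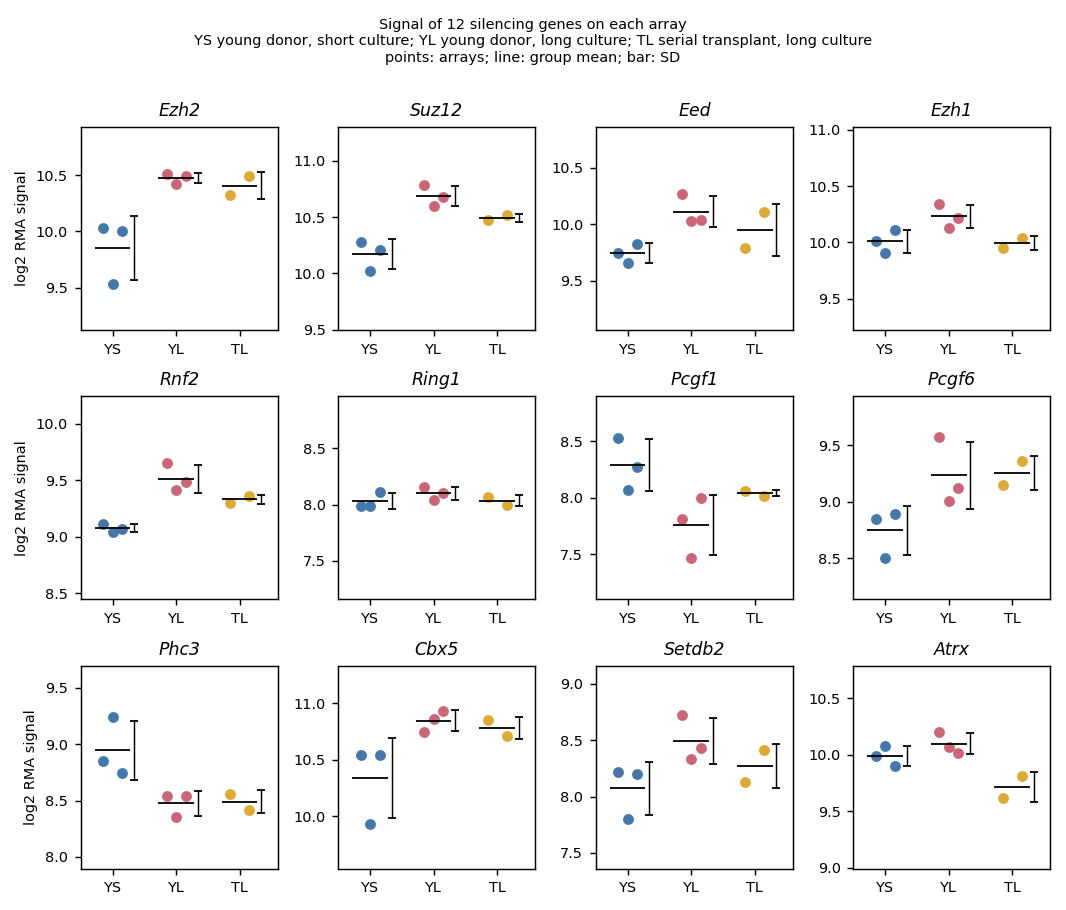
Log2 RMA signal (y axis) of 12 silencing genes on each array, by group (YS young donor, short culture; YL young donor, long culture; TL serial transplant, long culture), with the group mean as a line and the SD as a bar; each panel spans 1.8 log2 units. Ezh2, Suz12 and Rnf2 are higher on every long-culture array than on any short-culture array, Phc3 is lower, Pcgf1 is lowest in YL, and Atrx is lowest in TL.

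The promoters of the called genes are shown because the genes moved together, or apart, in one comparison. RefSeq (GRCm38.p6) holds windows from 250 bases before to 50 bases after a start for 35 of the 38 genes, though not for Pcgf1. The 250 bases upstream of the start are given 5′ to 3′ on the gene's own strand, at chr6:47595031-47595280 (minus strand, Ezh2), chr11:79992856-79993105 (plus strand, Suz12), chr1:151500992-151501241 (minus strand, Rnf2) and chr3:30969416-30969665 (minus strand, Phc3). Capitals mark exact matches, on either strand, to 4 E2F words (TTTCCCGC, TTTCGCGC, TTTGCCGC or TTTGGCGC) or to the NRF1 consensus. E2F factors drive genes of the cell cycle and NRF1 those of mitochondria and growth.
Ezh2: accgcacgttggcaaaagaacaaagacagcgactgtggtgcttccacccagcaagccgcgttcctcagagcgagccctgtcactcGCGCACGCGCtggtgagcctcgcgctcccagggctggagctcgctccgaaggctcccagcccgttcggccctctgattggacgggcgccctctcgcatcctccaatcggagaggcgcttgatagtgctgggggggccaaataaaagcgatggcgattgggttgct
Suz12: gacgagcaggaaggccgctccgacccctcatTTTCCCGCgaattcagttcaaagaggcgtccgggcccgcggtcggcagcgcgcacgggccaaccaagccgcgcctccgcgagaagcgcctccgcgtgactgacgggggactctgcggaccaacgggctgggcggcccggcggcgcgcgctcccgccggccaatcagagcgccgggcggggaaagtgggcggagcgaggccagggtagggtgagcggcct
Rnf2: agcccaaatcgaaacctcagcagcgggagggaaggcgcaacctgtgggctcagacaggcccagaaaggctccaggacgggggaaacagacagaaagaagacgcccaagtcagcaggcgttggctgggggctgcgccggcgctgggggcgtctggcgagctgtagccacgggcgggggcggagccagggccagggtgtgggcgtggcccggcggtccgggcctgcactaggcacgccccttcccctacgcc
Phc3: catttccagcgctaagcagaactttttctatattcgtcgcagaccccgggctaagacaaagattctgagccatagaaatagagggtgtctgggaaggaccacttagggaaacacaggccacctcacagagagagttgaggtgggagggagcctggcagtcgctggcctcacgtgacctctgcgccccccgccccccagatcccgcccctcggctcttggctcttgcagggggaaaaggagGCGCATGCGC

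Both called PRC2 genes had an E2F word, Suz12 from base -219, counted back from -1 just before the start, and Ezh2 (TTTGGCGC) from base 4 after it, past the printed stretch. Phf19, whose difference was the most negative of the PRC2 genes (-0.31), had one too, and Rnf2 and Phc3 had none. Over all 32851 windows 2.26% held an E2F word and 4.60% the NRF1 word, over the 21262 windows of protein-coding genes 2.85% and 6.38%, and over the 42 windows of 33 measured silencing genes 4 (9.52%) and 10 (23.8%). The windows of the silencing genes were also richer in CpG, with a median of 26 CpG against 13 in protein-coding genes, and all of the E2F and NRF1 words hold a CpG. A CCAAT box (CCAAT) stood in 40.5% of the silencing gene windows and 37.4% of all windows, the cyclic AMP response word TGACGTCA in 2 windows (4.76%, against 1.79%) and the YY1 word AAGATGGC in 3 (7.14%, against 2.75%), one of them at base 26 after the Phc3 start. These are matches of letters in a window and say nothing about binding.

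In PRC1 the test called 1 ubiquitin ligase subunit higher and 2 other subunits lower among 14 measured. That is 21.4%, beside 11.3% of all probe sets and 18.1% of the genes at least as bright as Phf19. Rnf2 (also known as Ring1b), the main H2A ubiquitin ligase, read 9.11, 9.04 and 9.07 in short culture, 9.65, 9.41 and 9.48 in young long culture and 9.30 and 9.36 in the serial-transplant line. The groups did not overlap, and the serial-transplant arrays lay between the others. The young-donor rise was 0.44 ± 0.10 (limma adjusted p = 0.0176), not passing without young long-culture replicate 1 (0.37, adjusted p = 0.0724) or 3 (0.45, adjusted p = 0.0632). Its paralog Ring1 read 7.99, 7.99 and 8.11, then 8.16, 8.04 and 8.10, and 8.07 and 8.00 in the same order of groups. These ranges overlapped, the difference was 0.07 ± 0.09 (adjusted p = 0.681) and its 95% interval ran from -0.13 to 0.27.

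The Pcgf genes encode the alternative partners of the Ring proteins, each of which defines a kind of PRC1. Pcgf1, partner in the complex that reads unmethylated CpG islands, read 8.53, 8.07 and 8.27 in short culture, 7.81, 7.47 and 8.00 in young long culture and 8.06 and 8.02 in the serial-transplant line. It fell by 0.53 ± 0.15 on the log2 scale in young donors (limma adjusted p = 0.0432), with the nearest arrays of the young groups at 8.00 and 8.07. Leaving out any array but young short-culture replicate 2 ended the call (adjusted p from 0.0501 to 0.126), as did centring each array (adjusted p = 0.0729). Bmi1 (Pcgf4), best known for repressing Cdkn2a in stem cells, read 10.05, 9.89 and 9.99 in short culture, 9.95, 9.62 and 9.86 in young long culture and 10.14 and 9.92 in the serial-transplant line. Its groups overlapped throughout, with a young-donor difference of -0.17 ± 0.11 (adjusted p = 0.388). Pcgf6 (0.49, adjusted p = 0.0684) and Pcgf5 (0.35, adjusted p = 0.0875) were higher on every long-culture array without passing, Pcgf6 at 8.50 to 8.89 in short and 9.01 to 9.57 in young long culture. Pcgf2 (0.16) and Pcgf3 (0.11) overlapped between the young groups.

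The other PRC1 subunits were the chromodomain proteins that read H3K27 methylation and the Polyhomeotic proteins that polymerise. Phc3 read 8.85, 9.24 and 8.74 in short culture, 8.54, 8.35 and 8.54 in young long culture and 8.56 and 8.42 in the serial-transplant line. All long-culture arrays lay below all short-culture arrays, and Phc3 fell by 0.47 ± 0.13 in young donors (limma adjusted p = 0.0436). The call was lost without any one of the other 5 arrays than young short-culture replicate 3 (adjusted p from 0.0645 to 0.122), with quantile normalization (adjusted p = 0.0557), with centring (adjusted p = 0.0653) and with the replicate number as a block (adjusted p = 0.0686). A dimmer probe set of Phc3 (mean 6.62) differed in the same direction, by -0.69 (adjusted p = 0.00650). Its paralogs Phc1 (0.20, adjusted p = 0.259) and Phc2 (0.06, adjusted p = 0.724) had positive differences. Of the chromodomain genes, Cbx2 was higher on every young long-culture array (10.05 to 10.08) than on any short-culture array (9.61 to 9.88) without passing (0.29, adjusted p = 0.103), while Cbx7 (0.10) and Cbx8 (0.11) overlapped.

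None of the 12 genes of the H3K9 system and its partners passed in young donors, and all 12 had positive differences, from 0.03 (Ehmt1) to 0.51 (Cbx5). Cbx5 (HP1 alpha), a reader of H3K9 methylation, read 10.54, 9.93 and 10.54 in short culture, 10.75, 10.86 and 10.93 in young long culture and 10.85 and 10.71 in the serial-transplant line. Its young groups did not overlap and differed by 0.51 ± 0.15, just short of the threshold (limma adjusted p = 0.0562). This fell to 0.31 (adjusted p = 0.0955) without young short-culture replicate 2 and passed with centring (adjusted p = 0.0434), with the replicate block (0.0478) and under 4 other settings. Cbx1 (HP1 beta) read 9.44, 9.30 and 9.48, then 9.60, 9.54 and 9.59, and 9.24 and 9.57, which separated the young groups by 0.17 ± 0.11 (adjusted p = 0.370). Cbx3 (HP1 gamma) read 11.75, 11.46 and 11.75, then 11.86, 11.73 and 11.83, and 11.69 and 11.82, with overlapping groups (0.15, adjusted p = 0.419). All 7 probe sets that carry the Cbx3 symbol differed by 0.07 to 0.19, and since such sets can share near-identical copies of the gene, its value is uncertain.

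The 5 lysine 9 methyltransferases had young-donor differences from 0.03 (Ehmt1) to 0.42 (Setdb2), and none passed. Setdb1, which silences retrotransposons, read 10.41, 10.08 and 10.40 in short culture, 10.43, 10.47 and 10.49 in young long culture and 10.51 and 10.47 in the serial-transplant line. All long-culture arrays were above the short-culture arrays, by 0.17 ± 0.11 in young donors (adjusted p = 0.354), with young short-culture replicate 2 again the lowest. Suv39h2, the germ cell paralog of Suv39h1, read 9.13, 8.51 and 9.05, then 9.15, 9.10 and 9.24, and 9.11 and 9.22. Its young groups overlapped, and the difference of 0.27 ± 0.15 did not pass (adjusted p = 0.278). Ehmt1 (GLP) read 9.45, 9.21 and 9.40, then 9.37, 9.31 and 9.47, and 9.18 and 9.37. Its partner in the G9a complex, Ehmt2, read 10.19, 10.00 and 10.18, then 10.14, 10.08 and 10.34, and 10.47 and 10.16. Both overlapped between all groups, with young-donor differences of 0.03 (95% interval -0.20 to 0.26) and 0.07 (-0.19 to 0.32). Setdb2 was higher on every young long-culture array (8.33 to 8.72) than in short culture (7.80 to 8.22), by 0.42 ± 0.15, without passing (adjusted p = 0.0891).

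Trim28 (KAP1), the corepressor that carries Setdb1 to zinc finger proteins, read 11.56, 11.05 and 11.57 in short culture, 11.46, 11.39 and 11.55 in young long culture and 11.66 and 11.32 in the serial-transplant line. Young short-culture replicate 2 was the lowest array and the groups overlapped (0.07, 95% interval -0.25 to 0.40). Hdac1, a histone deacetylase, read 11.09, 10.78 and 11.19, then 11.18, 11.10 and 11.21, and 11.17 and 11.15, which overlapped (0.15, adjusted p = 0.467). Its paralog Hdac2 read 11.44, 11.20 and 11.33, then 11.59, 11.58 and 11.55, and 11.56 and 11.73. Every long-culture array of Hdac2 was above every short-culture array, but its differences of 0.25 in young donors (adjusted p = 0.136) and 0.33 in the serial-transplant line (adjusted p = 0.105) did not pass. Atrx, the chromatin remodeller that deposits histone H3.3 in heterochromatin, overlapped between the young groups (9.90 to 10.08 against 10.02 to 10.20).

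**Figure D3:**
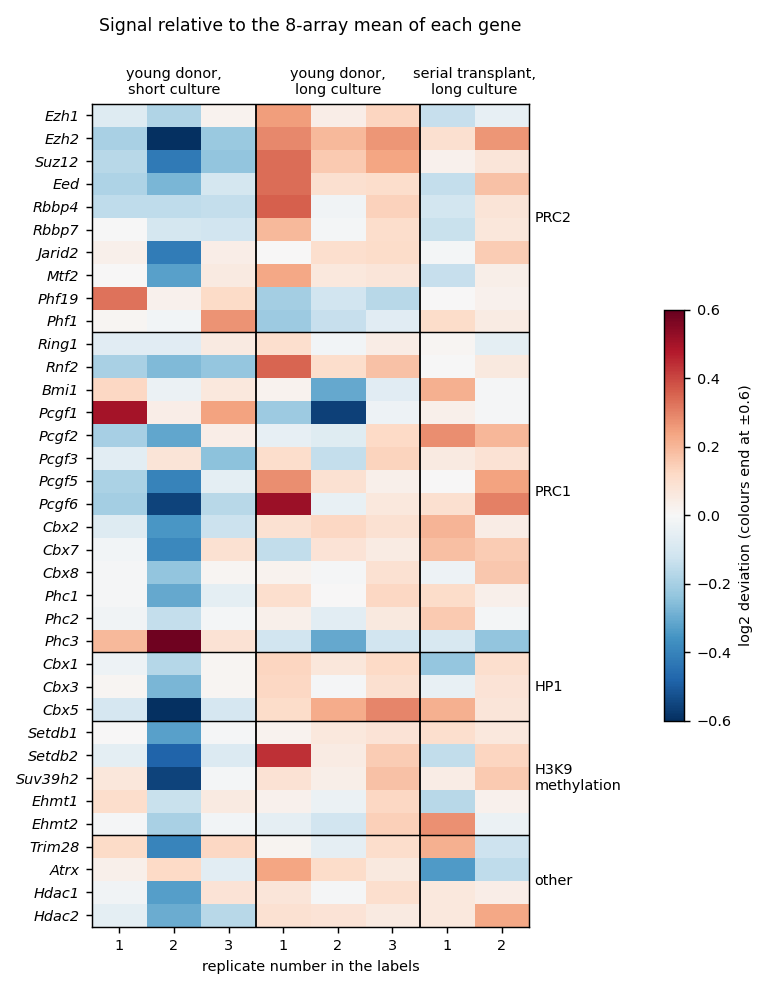
Log2 deviation of each of the 36 silencing genes (rows, by complex) from its mean over the 8 arrays, on each array (columns, by group and replicate number), red above and blue below. Young short-culture replicate 2 is low for most genes, with Phc3 among the exceptions, and most PRC2 genes are red in young long-culture replicate 1. The median deviation of the PRC2 genes is 0.24 there, and -0.06 and 0.07 on serial-transplant replicates 1 and 2.

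The level of the silencing genes differed between arrays of one group as well, beside markers of cell division and of fibroblasts. The median deviation of the 36 genes from their 8-array means was -0.28 on young short-culture replicate 2, -0.02 and -0.01 on the other short-culture arrays, and 0.00 to 0.10 on the 5 long-culture arrays. On that replicate the 15 measured cell division genes had a median of -0.47, against -0.13 and -0.23 on the rest of its group and 0.11 to 0.31 in young long culture. The 12 fibroblast markers had one of 1.03 there, against 0.49 and 0.39, and -0.30 to -0.24 in young long culture. In the young-donor comparison 9 of the 15 cell division genes rose and none fell, among them Ttk (0.79), Ccnb2 (0.74), Cdca8 (0.68), Nusap1 (0.85) and Mki67 (0.62), and 9 of the 12 fibroblast markers fell and none rose (limma). Of 6 leukocyte markers 4 fell, with 1 brighter than the overall median. Of all probe sets 5.43% rose and 5.83% fell in this comparison. What part the makeup of the cultures or their rate of division has in the differences of the silencing genes was not tested, and in bulk RNA fewer cells of a type and less RNA per cell cannot be told apart. With single arrays left out, 3 to 9 cell division genes rose and 5 to 9 fibroblast markers fell.

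**Figure D4:**
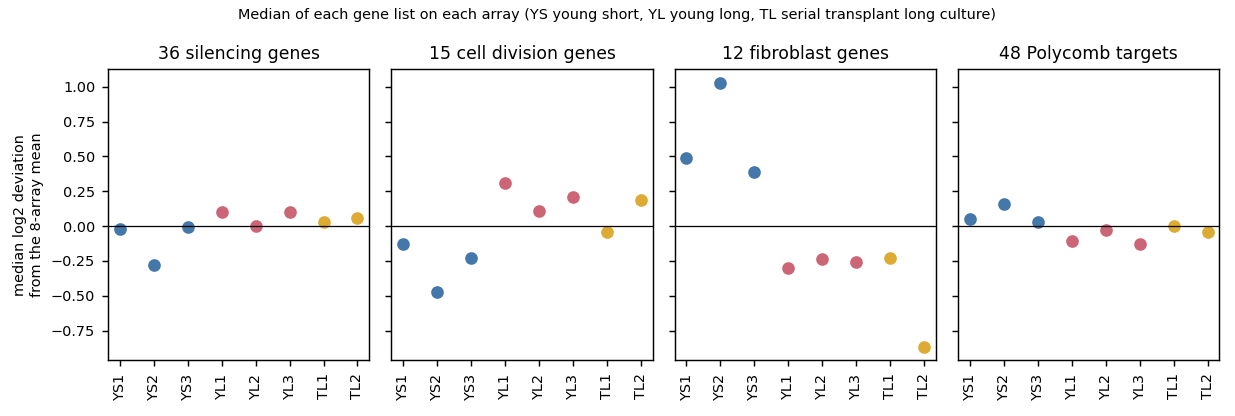
Median log2 deviation from the 8-array mean (y axis) of 4 gene lists on each array (x axis, coloured by group: YS young short, YL young long, TL serial transplant long culture). Young short-culture replicate 2 is lowest for the silencing genes (-0.28) and the cell division genes (-0.47) and highest for the fibroblast markers (1.03).

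Long culture of the serial-transplant line was compared with short culture of young donors, which uses the same short-culture arrays as the first comparison and changes both donor and culture time. Of the 36 silencing genes only Ezh2 rose and none fell (limma adjusted p under 0.05). That is 2.78% beside 8.73% of all probe sets (3.58% higher and 5.15% lower). Of the genes at least as bright as Phf19, 14.7% were called (6.90% higher). Ezh2 was higher by 0.55 ± 0.15, or 1.46-fold (adjusted p = 0.0431). It was 0.39 (adjusted p = 0.0573) without young short-culture replicate 2, and 0.63 (adjusted p = 0.0973) and 0.47 (adjusted p = 0.340) without serial-transplant replicate 1 and 2; without the latter 0.228% of all probe sets were called. The 36 genes had a median difference of 0.14, with 28 positive, beside a median of 0.05 in the genes at least as bright as Phf19. Without young short-culture replicate 2 the median of the 36 was 0.07.

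Among the other genes, none of which passed, were Pcgf6 (0.51, adjusted p = 0.103), Cbx5 (0.44, adjusted p = 0.154) and Phc3 (-0.45, adjusted p = 0.0873). For Phc3 the mean of its 2 probe sets did pass (-0.71, adjusted p = 0.0105), as did the brighter set without young short-culture replicate 3 (-0.55, adjusted p = 0.0433). Pcgf2 (MEL18), a partner of canonical PRC1, read 8.34 and 8.26 in the serial-transplant line against 7.86, 7.75 and 8.10 in short culture, a difference of 0.40 ± 0.13 (adjusted p = 0.0760). Suz12 was 0.32 (adjusted p = 0.120) and Rnf2 0.25 (adjusted p = 0.200) above short culture, both without overlap. In 13 of the 36 genes both serial-transplant arrays lay above all short-culture arrays and in 3 below. So did 18.9% and 18.4% of all probe sets, and 2845 and 2062 of the 9525 genes at least as bright as Phf19.

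The serial-transplant line was then set against young donors at the same culture time, a comparison in which the labelled donor age and transplantation both differ. None of the 36 genes passed, nor did any of the 28944 probe sets (limma), and the median difference was -0.00 with 16 positive and 20 negative. At an unadjusted p under 0.05 there was 1 of the 36, beside 1438 of 19938 genes. That gene was Atrx, which read 9.62 and 9.81 in the serial-transplant line, 10.20, 10.07 and 10.02 in young long culture and 9.99, 10.08 and 9.90 in short culture. Both serial-transplant arrays were the lowest of the 8, and the difference of -0.38 ± 0.11 had an unadjusted p of 0.00675 and an adjusted p of 0.465. Of the 10 PRC2 genes, none of which passed, 8 had a negative difference, with a median of -0.15 and a range from -0.23 (Ezh1) to 0.22 (Phf1). Of the 9525 genes at least as bright as Phf19, 5260 had a negative difference, with a median of -0.02. The 95% intervals show what 2 against 3 arrays can resolve: -0.44 to 0.31 for Cbx5, -0.37 to 0.36 for Suv39h2 and -0.24 to 0.29 for Setdb1.

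Partners and opponents of these complexes were read from lists of other genes. Of 28 PRC1 partners 1 rose and 2 fell in the young-donor comparison (limma). That is 10.7% beside 11.3% of all probe sets and 18.1% of the genes at least as bright as Phf19. The 2 that fell were Sfmbt2, a Polycomb protein with MBT domains that is imprinted in the mouse, and L3mbtl3 (-0.51, adjusted p = 0.0375), another MBT protein, and Wdr5, a subunit shared with the opposing Mll complexes, rose (0.42, adjusted p = 0.0384). Sfmbt2 read 10.42, 10.08 and 10.53 in short culture, 8.85, 9.25 and 9.23 in young long culture and 9.75 and 9.96 in the serial-transplant line. It fell by 1.24 ± 0.15 on the log2 scale (-1.24, 2.36-fold, adjusted p = 0.00131), and passed with each of the 6 arrays left out in turn. Between the serial-transplant line and short culture the difference was -0.49 ± 0.16 (adjusted p = 0.0924; 0.0309 without young short-culture replicate 2). The line was 0.75 ± 0.16 above young long culture, without overlap (unadjusted p = 0.000707, adjusted p = 0.326). Wdr5 and L3mbtl3 each kept their call in 1 of 6 such fits.

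In the serial-transplant line 2 of the PRC1 partners rose and 1 fell against young short culture (10.7% beside 8.73% of all probe sets and 14.7% of the genes at least as bright as Phf19). They were L3mbtl2 (0.61 ± 0.17, adjusted p = 0.0451), a partner of Pcgf6 in the germ-line repressing form of PRC1, Bcorl1 (0.50 ± 0.13, adjusted p = 0.0402), a relative of the Pcgf1 partner Bcor, and L3mbtl3 (-0.57, adjusted p = 0.0439), whose 8-array mean of 6.61 is dim. Of these, L3mbtl2 kept its call with 2 of 5 arrays left out, and the others with 1. Among 9 PRC2 cofactors and opponents the 1 called in young donors was Kdm6a (-0.40, adjusted p = 0.0445), an H3K27 demethylase that works against PRC2 and that passed in 1 of 6 fits with an array left out. It read 8.31, 8.05 and 8.17 in short culture and 7.88, 7.62 and 7.82 in young long culture.

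Among 12 genes listed as H3K9 demethylases, 1 rose and 1 fell in young donors (16.7% beside 11.3% of all probe sets). In the serial-transplant line 1 rose and 2 fell against short culture (25.0% beside 8.73%). Of the genes at least as bright as Phf19, 18.1% were called in young donors and 14.7% in the serial-transplant line. Of the 12 demethylase genes 11 were brighter than the overall median. The list does not sort these enzymes by their main substrate, so a rise is not read as a loss of silencing. Kdm1a (LSD1) read 10.19, 9.99 and 10.27 in short culture, 10.71, 10.59 and 10.61 in young long culture and 10.62 and 10.63 in the serial-transplant line, a rise of 0.49 ± 0.10 (limma adjusted p = 0.0137) and 0.47 ± 0.11 (adjusted p = 0.0265). Phf2 read 8.09, 8.33 and 7.83, then 7.41, 7.40 and 7.32, and 7.38 and 7.18, a fall of 0.71 ± 0.13 (-0.71, adjusted p = 0.00730) and of 0.81 ± 0.14 (-0.81, adjusted p = 0.00761). Both separated long from short culture on every array. Kdm4c was -0.46 (adjusted p = 0.0501) and, in the serial-transplant line, -0.61 (adjusted p = 0.0285). In young donors Phf2 passed with each of 6 arrays left out and Kdm1a with 4, not without long-culture replicate 1 or 3. In the serial-transplant line Phf2 passed with 4 of 5 arrays left out, Kdm1a with 2 and Kdm4c with 1 (adjusted p from 0.0510 to 0.271 in the other fits).

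Of 41 heterochromatin partners, all brighter than the overall median, 3 rose and 1 fell in young donors, 9.76% beside 11.3% of all probe sets. Of the genes at least as bright as Phf19, 18.1% were called in young donors and 14.7% in the serial-transplant line against short culture. The risers were Incenp (0.68, adjusted p = 0.0177), a centromere protein of the mitotic Aurora B complex, Sirt1 (0.48, adjusted p = 0.0190), an NAD-dependent deacetylase, and Smchd1 (0.34, adjusted p = 0.0384), which maintains X inactivation. Zfp809, a zinc finger protein that leads Trim28 to proviral DNA, fell (-0.54, adjusted p = 0.0267). Smchd1 passed with none of the 6 arrays left out, Zfp809 with 1, and Incenp and Sirt1 with 4. In the serial-transplant line 2 rose against short culture (4.88% beside 8.73% of all probe sets), among them the corepressor Sin3b (0.46, adjusted p = 0.0247; 2 of 5 arrays left out).

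**Figure D5:**
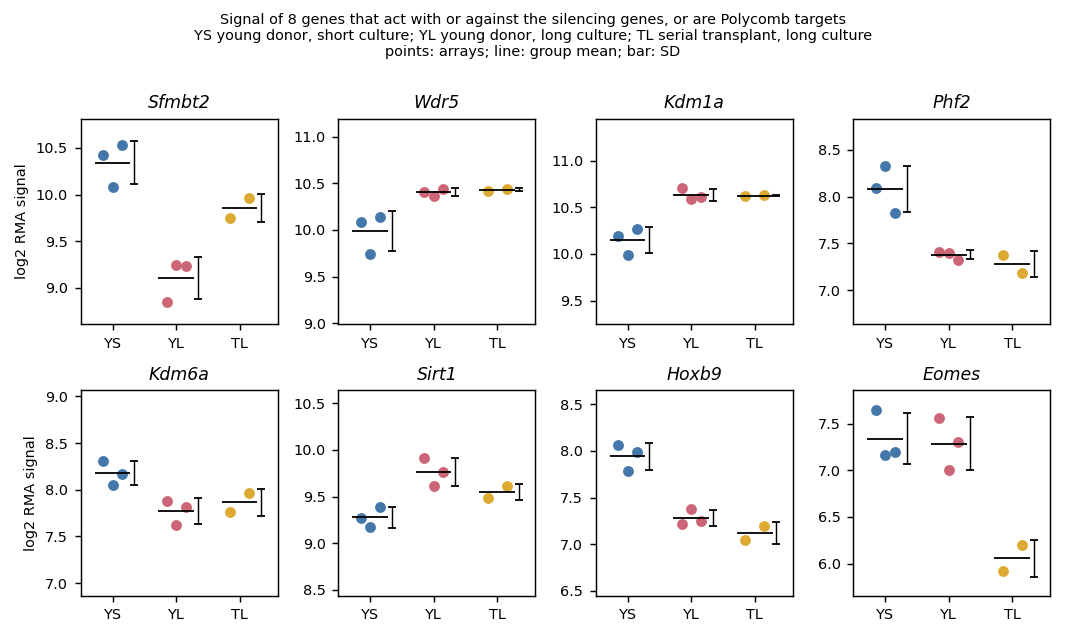
Log2 RMA signal (y axis) of 8 partner, opponent or target genes on each array, by group as named above the panels, with the group mean as a line and the SD as a bar; each panel spans 2.2 log2 units. Sfmbt2 is lowest in young long culture, Kdm1a and Phf2 separate long from short culture in opposite directions, and Eomes is low in the serial-transplant line alone, at 5.92 and 6.20.

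Textbook Polycomb targets were mostly dim, and more of them fell than rose. Of 48 measured, 11 were brighter than the overall median. In young donors 6 fell and 1 rose after long culture (14.6% beside 11.3% of all probe sets), with a list median of -0.16 beside -0.04 in all genes. The background varied with brightness: 8608 of all 19938 genes were positive, and 5622 of the 9525 at least as bright as Phf19. No background of genes as dim as these targets was drawn, so the list median is not read as a shift particular to Polycomb targets. The fallers were Hox genes, which set position along the body axis in somatic cells. Hoxb9 read 8.06, 7.78 and 7.99 in short culture, 7.22, 7.38 and 7.25 in young long culture and 7.04 and 7.20 in the serial-transplant line, a fall of 0.66 ± 0.11 (-0.66, limma adjusted p = 0.00474). Hoxb6 (-0.79, adjusted p = 0.00502), Hoxa5 (-0.72, adjusted p = 0.00869) and Hoxd4 (-0.46, adjusted p = 0.0120) fell beside it, at young long-culture means of 6.89, 6.49 and 6.02, below the overall median. These 4 passed with each of the 6 arrays left out, when 4 to 5 genes of the list fell in all. Fibroblasts carry Hox transcripts as well, and the fall of their markers stands beside this one; its part was not tested.

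In the serial-transplant line 4 targets fell and 1 rose against short culture (10.4% beside 8.73% of all probe sets). Among the fallers were Hoxb9 (-0.83), Hoxb6 (-0.68) and Hoxa5 (-0.71). Not all Hox genes moved this way: Hoxb13, dim at an 8-array mean of 6.25, read 6.09, 6.13 and 6.19 in short culture and 6.49 and 6.60 in the line. In the same comparison 9 of the 12 fibroblast markers fell, with a list median of -1.17, and their part was not tested here either. The fourth target to fall was Eomes, a T-box factor of early embryonic lineages. It read 5.92 and 6.20 in the serial-transplant line, 7.65, 7.16 and 7.20 in short culture and 7.56, 7.00 and 7.30 in young long culture. The serial-transplant arrays lay apart from all others, by -1.27 ± 0.19 against short culture (adjusted p = 0.00404) and by -1.23 ± 0.19 against young long culture (unadjusted p = 3.33e-05, adjusted p = 0.114; 0.0162 with array weights and 0.0441 with only those groups in the fit). Without serial-transplant replicate 2 none of the 4 passed against short culture (adjusted p from 0.0576 to 0.229). Cdkn2a, the tumour suppressor locus that Bmi1 represses, was named after its values were seen. It read 8.36, 8.45 and 8.40 in short culture, 8.69, 8.53 and 8.73 in young long culture and 8.63 and 8.64 in the serial-transplant line, which did not overlap with short culture but did not pass (0.25, adjusted p = 0.122, and 0.23, adjusted p = 0.226).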

How the data were processed

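The authors deposited 1 log2 signal for each probe set on each array. Partek 6.4 and RMA are the tools named in the submitters' processing notes; their settings and the genome build are not stated there. RMA corrects background, normalizes between arrays and gives no detection call. Of 35557 rows, 6613 presumed controls, the opening run of consecutive identifiers, were left out. Of 28944 probe sets tested, 21789 carry 1 gene symbol, 1621 several and 5534 none. Symbols outside the members were updated by gene number from a RefSeq table (GRCm38.p6), in which 21698 of the 21789 were found.

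The groups were tested pairwise in 1 limma 3.58.1 model (R 4.3.3) with a coefficient for each group and all 8 arrays, moderated by eBayes (residual degrees of freedom 5, prior 6.28). Tests were two-sided, without a fold requirement, and p-values were adjusted by Benjamini-Hochberg over every probe set. Errors of differences are standard errors. In 10 simulated sets of 28944 probe sets, 200 were changed between the young groups. There the fit recovered 87.3% of changes of 1 and 30.5% of changes of 0.5 on the log2 scale. In the data 3260 probe sets were called in that comparison, so these shares are not the recovery in these data. Differences of the size seen here can still be missed.

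The members and lists were chosen with earlier results of these data known. Every array's value is given for members past the test in any comparison and for the enzymes and core subunits, and at most 5 genes of each other list are named, by the smallest p among those past the test. Replicate numbers were not taken as pairs, since the labels do not say that a number pairs samples. The deviations of same-numbered young arrays from their group means correlated at 0.08, 0.18 and 0.10, which with so few arrays cannot decide it. The markers of Sertoli and Leydig cells were also read: in young donors 1 of 5 and 0 of 4 rose, and 0 and 3 fell. Of the spermatogonial markers 2 of 8 rose and 1 fell, and of the core germ cell markers 2 of 5 rose. These small counts stand beside 5.43% of all probe sets higher and 5.83% lower in young donors.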

Additional observations from a re-analysis of the deposited data

How the results depend on the processing

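The number of silencing genes past the test was 5 in long against short culture of young donors. It was 7 with array weights (17.5% of all probe sets called), 6 with an intensity trend in eBayes (11.4%) and 6 with only probe sets above the median (20.0% of those). It was 4 with quantile normalization (10.5%), 3 with the presumed control probe sets included (4.34%) and 3 with only the arrays of both groups in the fit (9.77%). With single arrays left out it ranged from 0 to 5, and the cause was not tested. Between the serial-transplant line and young short culture the number was 1. It was 0 with the control probe sets included, 0 with only the arrays of both groups in the fit, 2 when a gene's probe sets were averaged and 2 with the replicate number as a block, and it ranged from 0 to 3 with single arrays left out. Where an array is left out of the serial-transplant line, the lone one is assumed to vary like the other groups. Under the block the young-donor count was 5, with 4 higher and 1 lower, and the comparison of both long-culture groups gave 0. Of 8 arrays 2 had their best match in another group in the array of the same number. With so few arrays a group, such matches cannot decide whether the number pairs them. The comparison of both long-culture groups gave 0 silencing genes under all 9 settings and with every array left out. Ezh2, Suz12 and Rnf2 passed in young donors under each of the 9 settings that kept all arrays, with differences of 0.37 to 0.71 over those and the 6 fits that left out an array; Pcgf1 passed under 6 of them and Phc3 under 4. No difference of a named gene changed its sign where either fit called it. All measured silencing genes were brighter on average than the median probe set.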
